A study of Mus musculus with 6 samples.

Results

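SR proteins and heterogeneous nuclear ribonucleoproteins (hnRNPs) are the main RNA-binding proteins that decide which exons of a pre-mRNA are kept. Their genes were chosen by symbol as all Srsf genes, Tra2a and Tra2b, and all symbols that start with Hnrnp. This gave 33 of the 24421 genes listed, with 11 Srsf genes, 2 Tra2 genes and 20 hnRNP genes. All 33 passed the filter on low counts, and together they held about 1.2% of gene counts.

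RNA-seq covered 6 libraries of cells labelled as mouse oligodendrocyte progenitors (OPCs), which divide and give rise to the oligodendrocytes that form myelin. The 3 libraries of the conditional knockout (cKO) came from Prrc2bf/f; Olig2-Cre mice, and the 3 control libraries from Prrc2bf/f mice without Cre, so both groups carry the floxed Prrc2b alleles. Prrc2b encodes an RNA-binding protein of the PRRC2 family. All mice were C57BL/6J pups at postnatal day 4. Per the labels' protocols, cortical cells were panned with GalC and O4 antibodies and grown in a medium with PDGF-AA and bFGF, whereas the series' design text speaks of brain tissue. Olig2-Cre acts wherever Olig2 is or was expressed, which is not limited to OPCs. No group carried Olig2-Cre without floxed Prrc2b, so the Cre transgene and the loss of Prrc2b cannot be told apart. The labels do not say how many pups a library holds or what a replicate number marks. A p-value therefore covers just the spread seen among 3 libraries a group. Where the replicate number is part of the test, it covers the spread of the differences between same-numbered libraries. Either spread may be technical.

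SR proteins carry RNA recognition motifs and a tail rich in arginine and serine, bind exonic enhancers and recruit the spliceosome. Many hnRNPs bind silencers in exons or introns and oppose them, and several also act on mRNA export, transport and decay. Many genes of both families lower their own protein through alternative exons that send the transcript to nonsense-mediated decay. In the oligodendrocyte lineage, hnRNP A2 is known for the transport of Mbp mRNA.

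The targeted gene had 649, 824 and 757 CPM (counts scaled to library size and by TMM) in cKO libraries 1, 2 and 3, against 932, 1111 and 925 CPM in control libraries 1, 2 and 3. Every cKO library lay below every control library for Prrc2b. The mean was 743 ± 88.2 CPM in cKO and 989 ± 105 CPM in control libraries (SD, n = 3 each), a log2 fold change of -0.41 (SE 0.13, adjusted p = 1.00) by edgeR's quasi-likelihood test with Benjamini-Hochberg adjustment. With the replicate number as a block in the same test, it was -0.41 (SE 0.06, adjusted p = 0.00688). Counts per gene do not tell exons inside the floxed stretch from those outside it, and the cKO level was 0.75 times the control level with the block. Gene counts per library ran from 26015604 to 28114968, and 15906 genes were tested. OPC markers summed to 2789 to 5484 CPM in cKO libraries and 2805 to 4714 CPM in control libraries, and 0 of their 10 genes passed either edgeR fit. Among the other marker lists, neuronal genes were at 3261 to 5056 CPM in cKO and 3673 to 5515 CPM in control libraries.

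The test with genotype alone called 0 of the 33 genes and 0 of all 15906, which is a background of 0.00%. At an unadjusted p under 0.05 this edgeR test had 3 of the 33 genes, Hnrnpa0, Hnrnph3 and Srsf4, and 274 of all genes. DESeq2 called 1 of the 33, Hnrnpa0 at an adjusted p of 0.00520, and 20 of all genes, and limma-voom called 0 of both. Libraries with the same number deviated from their group means together, so the replicate block is given beside this test throughout. With the block, 4 of the 33 genes fell in cKO libraries and 0 rose, while 29 did not pass. The background was 3.80% of all tested genes called in either direction, 2.23% lower and 1.57% higher. The 4 that fell, Hnrnpa0, Hnrnpd, Hnrnpab and Hnrnph3, were all hnRNP genes. At an unadjusted p under 0.05 the blocked edgeR fit had 14 of the 33 genes, beside 2893 of all 15906. Of these 14, 11 were among the 20 hnRNP genes and 3 among the 13 SR and Tra2 genes. In bulk RNA, fewer cells of a type and less of a transcript per cell cannot be told apart.

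**Figure D1:**
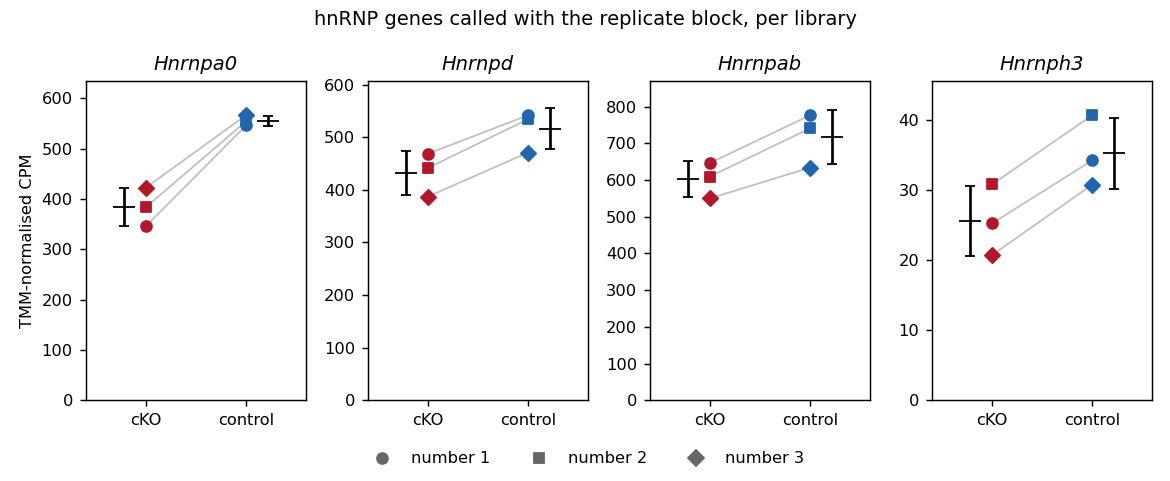
TMM-scaled CPM (vertical axes, from 0) of Hnrnpa0, Hnrnpd, Hnrnpab and Hnrnph3 in the 3 cKO and 3 control libraries, with lines that join libraries of the same number and bars for the mean ± SD. All 3 lines of each gene show the cKO library below its control, and the groups do not overlap for Hnrnpa0 and Hnrnpd.

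Hnrnpa0 encodes a protein that binds AU-rich elements of mRNAs. It had 345, 383 and 422 CPM in cKO libraries 1, 2 and 3, against 546, 554 and 566 CPM in control libraries 1, 2 and 3. The groups did not overlap, and the control libraries lay close together. The mean was 384 ± 38.3 CPM in cKO and 555 ± 10.2 CPM in control libraries (SD, n = 3 each). The log2 ratio within the same number was -0.66, -0.53 and -0.42. In edgeR's test with the block the log2 fold change was -0.54 (SE 0.05, adjusted p = 0.00222), which is 0.689 times the control level. It ranked number 8 of all genes by p. Without the block the log2 fold change was -0.53 (SE 0.10, unadjusted p = 0.00145), with an adjusted p of 1.00. The call with the block held in all 11 blocked settings that were run, with adjusted p up to 0.00911.

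Hnrnpd encodes AUF1, which binds AU-rich elements and takes part in mRNA decay. Its level was 468, 441 and 387 CPM in cKO libraries 1, 2 and 3, against 542, 534 and 471 CPM in control libraries 1, 2 and 3. The lowest control library lay just above the highest cKO library, so the groups did not overlap. The mean was 432 ± 41.5 CPM in cKO and 516 ± 38.9 CPM in control libraries (SD, n = 3 each). With the block the log2 fold change was -0.26 (SE 0.04, adjusted p = 0.0118 by edgeR), and without it -0.25 (SE 0.11, unadjusted p = 0.0587). Leaving out pair 3 ended the call, at an adjusted p of 0.0512.

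Hnrnpab encodes hnRNP A/B, a relative of AUF1. It had 646, 609 and 550 CPM in cKO libraries 1, 2 and 3, against 776, 741 and 634 CPM in control libraries 1, 2 and 3. Here control library 3 fell among the cKO libraries, so the groups overlapped, and the difference is one within pairs. The mean was 602 ± 48.7 CPM in cKO and 717 ± 74.1 CPM in control libraries (SD, n = 3 each), and the blocked log2 fold change was -0.25 (SE 0.04, adjusted p = 0.0181 by edgeR). The call was lost without pair 1 (adjusted p = 0.0752) and without pair 2 (adjusted p = 0.0876).

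Hnrnph3 encodes a member of the hnRNP H and F group, which binds runs of G. It had 25.2, 30.8 and 20.7 CPM in cKO libraries 1, 2 and 3, against 34.2, 40.7 and 30.8 CPM in control libraries 1, 2 and 3. The second cKO library reached the level of the lowest control library, while each cKO library was below the control of its own number. The mean was 25.6 ± 5.05 CPM in cKO and 35.2 ± 5.02 CPM in control libraries (SD, n = 3 each). With the block the log2 fold change was -0.47 (SE 0.08, adjusted p = 0.0198 by edgeR), and without it -0.46 (SE 0.19, unadjusted p = 0.0461). Without pair 3 the adjusted p was 0.0935.

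The promoters of these 4 genes are shown because they are the ones whose transcripts fell. Each window runs from 250 bases before to 50 bases after the annotated start in RefSeq (GRCm38.p6), on the minus strand in all 4 cases. Hnrnpa0 lies at chr13:58128507-58128806, Hnrnpd at chr5:99978889-99979188, Hnrnpab at chr11:51606832-51607131 and Hnrnph3 at chr10:63023800-63024099. Capitals mark matches on either strand to common promoter motifs. These are the GC box, which reads GGGCGG, and the CCAAT box, which reads as its name says. The TATA box was searched for as the letters TATAAA and the E-box as the letters CACGTG. The motif of the ETS factors was searched for as the letters CCGGAAG. No base of the 4 windows lies in more than 1 match.
Hnrnpa0: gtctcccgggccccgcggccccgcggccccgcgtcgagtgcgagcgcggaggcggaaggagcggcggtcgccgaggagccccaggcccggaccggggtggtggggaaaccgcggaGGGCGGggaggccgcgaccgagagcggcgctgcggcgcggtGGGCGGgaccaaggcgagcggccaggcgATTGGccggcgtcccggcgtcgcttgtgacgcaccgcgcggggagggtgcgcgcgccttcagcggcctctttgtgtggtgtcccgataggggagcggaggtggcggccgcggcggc
Hnrnpd: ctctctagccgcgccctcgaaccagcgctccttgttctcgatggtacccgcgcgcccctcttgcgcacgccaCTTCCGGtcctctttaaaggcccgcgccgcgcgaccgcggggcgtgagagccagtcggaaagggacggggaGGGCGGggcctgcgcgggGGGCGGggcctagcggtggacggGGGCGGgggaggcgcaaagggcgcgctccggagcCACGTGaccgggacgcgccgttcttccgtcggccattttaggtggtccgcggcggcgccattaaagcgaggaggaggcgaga
Hnrnpab: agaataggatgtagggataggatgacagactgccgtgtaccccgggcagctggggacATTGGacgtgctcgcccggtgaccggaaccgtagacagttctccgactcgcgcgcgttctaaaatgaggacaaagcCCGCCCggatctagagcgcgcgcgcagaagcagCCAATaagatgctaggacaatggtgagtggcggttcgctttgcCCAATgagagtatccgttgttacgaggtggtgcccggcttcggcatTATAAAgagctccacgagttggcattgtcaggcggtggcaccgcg
Hnrnph3: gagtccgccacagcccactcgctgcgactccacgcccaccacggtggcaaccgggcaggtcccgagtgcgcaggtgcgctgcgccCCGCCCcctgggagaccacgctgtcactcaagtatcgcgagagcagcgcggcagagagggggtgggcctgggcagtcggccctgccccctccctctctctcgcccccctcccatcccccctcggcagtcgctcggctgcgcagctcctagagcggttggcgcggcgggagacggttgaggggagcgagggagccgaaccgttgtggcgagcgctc

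The Hnrnpa0 window was 79.7% G or C with 52 CpG sites and held 2 GC boxes and 1 CCAAT box. The Hnrnpd window, at 72.3% G or C, held 3 GC boxes, 1 ETS motif and 1 E-box. The Hnrnpab window had the lowest GC content of the 4, 58.3%, and held 1 GC box, 3 CCAAT boxes and 1 TATA box. The Hnrnph3 window, at 73.0% G or C, held 1 GC box. The GC box was the one motif that all 4 held. Of the 33 genes, 31 had 43 windows in the RefSeq set, and Hnrnpll and Hnrnpul2 had none. Some genes, such as Hnrnph1, Hnrnpf and Srsf4, had several windows, and some of these overlap, so windows are not separate genes. All 32851 windows came from 27025 genes. Hnrnpf, Srsf11 and Srsf4 each had more than 1 of the windows with an ETS motif. A GC box stood in 36 of the 43 windows (83.7%), against 35.7% of all 32851 windows of the same length. The ETS motif stood in 10 of 43 (23.3%), against 8.86% of all windows, and the CCAAT box in 22 of 43 (51.2%), against 37.4%. The TATA box stood in 4 of 43 (9.30%), against 13.6%, and the E-box in 5 of 43 (11.6%), against 7.15%. The median GC content was 67.3% in the 43 windows and 52.7% in all windows. These matches are a description of the letters and were not tested.

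Both Hnrnpd and Hnrnpa0 have another hnRNP gene in their neighbourhood. Hnrnpd and its relative Hnrnpdl lie 54.6 kb apart on chromosome 5, and Hnrnpa0 and Hnrnpk lie 263 kb apart on chromosome 13. Hnrnpdl had 499, 457 and 482 CPM in cKO libraries 1, 2 and 3, against 524, 512 and 514 CPM in control libraries 1, 2 and 3. The groups did not overlap for Hnrnpdl, and its blocked log2 fold change of -0.11 (SE 0.04) did not pass (adjusted p = 0.199 by edgeR). Hnrnpk, an abundant protein that binds C-rich RNA, had 898, 845 and 748 CPM in cKO libraries 1, 2 and 3, against 868, 902 and 755 CPM in control libraries 1, 2 and 3. The order of the groups differed between pairs for Hnrnpk, at a log2 fold change of -0.02 (SE 0.05, adjusted p = 0.883 by edgeR with the block).

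Among the 16 hnRNP genes that did not pass, the smallest adjusted p with the block belonged to Hnrnpll, Hnrnpul1 and Hnrnpu. Hnrnpll, known in mouse T cells for the splicing of the Ptprc transcript, had 179, 190 and 137 CPM in cKO libraries 1, 2 and 3, against 198, 214 and 152 CPM in control libraries 1, 2 and 3. Its blocked log2 fold change was -0.16 (SE 0.04, adjusted p = 0.0542 by edgeR). Hnrnpul1, a relative of hnRNP U, had 269, 298 and 240 CPM in cKO libraries 1, 2 and 3, against 313, 342 and 253 CPM in control libraries 1, 2 and 3. Its blocked log2 fold change was -0.16 (SE 0.04, adjusted p = 0.0565 by edgeR). Hnrnpu encodes a protein that binds both RNA and chromatin. It had 941, 742 and 743 CPM in cKO libraries 1, 2 and 3, against 1070, 859 and 775 CPM in control libraries 1, 2 and 3, with a blocked log2 fold change of -0.15 (SE 0.05, adjusted p = 0.138 by edgeR). For all 3 genes the groups overlapped while each cKO library was below the control of its own number.

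The gene of hnRNP A2 and those of the hnRNP H and F group other than Hnrnph3 did not pass the test. Hnrnpa2b1, which encodes hnRNP A2, averaged 1101 ± 118 CPM in cKO and 1151 ± 149 CPM in control libraries (SD, n = 3 each). Hnrnph1, which encodes hnRNP H, averaged 946 ± 71.4 CPM in cKO and 990.4 ± 77.6 CPM in control libraries. Hnrnpf averaged 229 ± 23.7 CPM in cKO and 213 ± 34.7 CPM in control libraries, with a positive blocked log2 fold change of 0.11 (SE 0.04, adjusted p = 0.211 by edgeR). Hnrnph2, a close relative of Hnrnph1, was at 0.02 on the same scale.

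The remaining hnRNP genes did not pass either. Hnrnpc, which binds runs of U, averaged 356 ± 23.5 CPM in cKO and 367 ± 21 CPM in control libraries, and Hnrnpl, which binds CA repeats, 354 ± 43.0 CPM in cKO and 366.5 ± 37.5 CPM in control libraries. For Hnrnpm, a splicing regulator, the blocked log2 fold change was -0.12 (SE 0.04, adjusted p = 0.171 by edgeR), and for Hnrnpul2, a relative of hnRNP U, -0.11 (SE 0.04, adjusted p = 0.150). Hnrnpr was at -0.04 and Hnrnpa3, a relative of Hnrnpa1, at 0.07 on the same scale. Hnrnpf, Hnrnpa3 and Srsf5 were the genes of the 33 that were higher in cKO in all 3 pairs.

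Levels are compared between genes per kilobase of merged annotated exons, and as levels, not differences. Merging covers all annotated transcripts, so a gene with many transcripts is divided by more bases. That was 2782 bases from 3 transcripts for Hnrnpab and 6584 from 13 for Hnrnpa2b1. In CPM the order differs, with Hnrnpa2b1 (1126) above Hnrnpab (659) and Srsf1 (554) above Srsf2 (350) over all libraries. Per kilobase, Hnrnpab had the highest level of the 33 genes, at 216 CPM per kilobase in cKO and 258 in control libraries. Hnrnpa0 stood at 143 CPM per kilobase in cKO and 207 in control libraries. It was therefore below Hnrnpa2b1 (167 CPM per kilobase) and Hnrnph1 (162) in cKO libraries, and above Hnrnpa2b1 (175) and Hnrnph1 (170) in control libraries. The lowest hnRNP levels were those of Hnrnpa1, a well studied repressor of exons, and Hnrnph3. Hnrnpa1 was at 8.87 CPM per kilobase in cKO and 10.3 in control libraries, and Hnrnph3 at 8.11 in cKO and 11.2 in control libraries. Hnrnpa1 had 28.9, 30.3 and 24.7 CPM in cKO libraries 1, 2 and 3, against 29.0, 38.9 and 29.1 CPM in control libraries 1, 2 and 3, and its groups overlapped. Its blocked log2 fold change was -0.20 (SE 0.09, adjusted p = 0.297 by edgeR). Its level is uncertain, because 10 annotated pseudogene transcripts match it at 95% identity or more over at least 150 bases and the tables tally read pairs with several alignments apart from the genes. Such pseudogenes exist for 11 of the 33 genes and for 0 of the 4 that fell. The 11 include Hnrnpf, Hnrnpa3 and Srsf5, the genes that were higher in cKO in all 3 pairs. They also include Hnrnpa1, Hnrnpc and Hnrnpr, which were lower in cKO in all 3 pairs. For the rest of the 11 the direction differed between pairs. The part of such pseudogenes in these values was not tested.

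**Figure D2:**
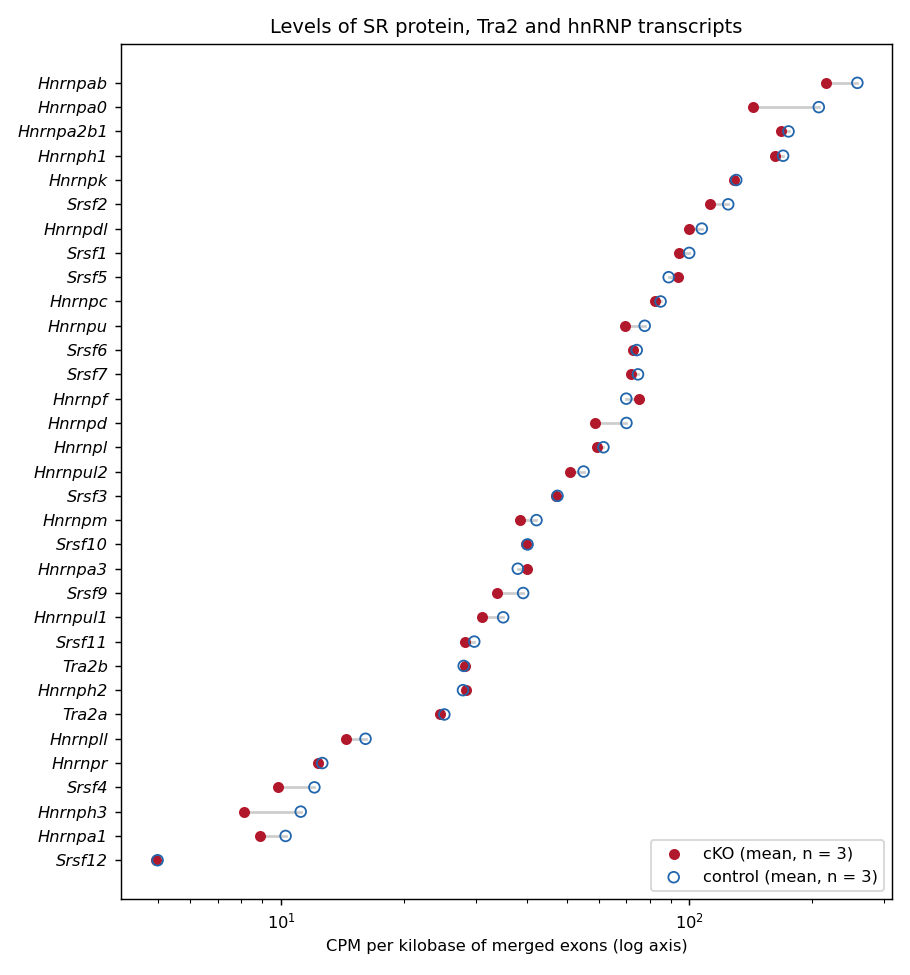
Mean level of each of the 33 genes in CPM per kilobase of merged exons (log axis), as points for the 3 cKO and the 3 control libraries. Hnrnpab is highest at 216 in cKO and 258 in control libraries, and Srsf12 lowest at 4.94 in cKO and 4.99 in control libraries.

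The SR protein and Tra2 genes held 0 of 13 calls with edgeR and the block, with 3 of 13 at an unadjusted p under 0.05, beside 2893 of all 15906 genes. With the block, DESeq2 called 0 of the 13, beside 4.28% of all genes, and limma-voom 2, Srsf2 and Srsf4, beside 4.48%. In edgeR with the block and no filter, Srsf2 and Srsf4 also passed, beside 5.13% of all genes. Srsf2 passed at a mean of at least 5 CPM, beside 3.61%, and after correction for GC content, beside 2.92%. Srsf2 encodes an SR protein that binds exonic enhancers and also acts in transcription. Per kilobase it had the highest level of the 13, at 112 CPM per kilobase in cKO and 124 in control libraries. Srsf2 had 378, 314 and 305 CPM in cKO libraries 1, 2 and 3, against 417, 348 and 339 CPM in control libraries 1, 2 and 3. The groups overlapped, and each cKO library was lower than its control. The blocked log2 fold change was -0.15 (SE 0.04, adjusted p = 0.0525 by edgeR), at the edge of the threshold.

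Srsf4, an SR protein with a long arginine and serine tail, had 36.1, 36.0 and 33.1 CPM in cKO libraries 1, 2 and 3, against 45.7, 45.3 and 38.0 CPM in control libraries 1, 2 and 3. It was the one gene of the 13 whose groups did not overlap. Its blocked log2 fold change was -0.29 (SE 0.07, adjusted p = 0.0684 by edgeR). Srsf9 had 62.1, 56.3 and 49.4 CPM in cKO libraries 1, 2 and 3, against 70.9, 69.8 and 53.4 CPM in control libraries 1, 2 and 3. Its groups overlapped, at a blocked log2 fold change of -0.21 (SE 0.06, adjusted p = 0.119 by edgeR). Srsf12 had the lowest level of the 33 genes, with 11.0, 13.3 and 22.3 CPM in cKO libraries 1, 2 and 3, against 10.3, 13.3 and 23.4 CPM in control libraries 1, 2 and 3. Both number 3 libraries had about the same high level of Srsf12, and the blocked log2 fold change was 0.00 (SE 0.11, adjusted p = 0.990 by edgeR).

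The remaining SR and Tra2 genes lay between -0.08 and 0.08 on the log2 scale. Srsf1, the founding member of the family, averaged 539 ± 78.4 CPM in cKO and 570 ± 92.2 CPM in control libraries (SD, n = 3 each), with a blocked log2 fold change of -0.08 (SE 0.04, adjusted p = 0.358 by edgeR). Srsf3 and Srsf7 encode SR proteins that also act as adaptors in mRNA export. Srsf3 averaged 371 ± 3.20 CPM in cKO and 375 ± 9.91 CPM in control libraries, and Srsf7 averaged 255 ± 20.9 CPM in cKO and 266 ± 29.1 CPM in control libraries. Tra2b, which binds GA-rich exonic enhancers, averaged 261 ± 36.5 CPM in cKO and 259 ± 20.8 CPM in control libraries. Tra2a averaged 170 ± 25.2 CPM in cKO and 174 ± 28.7 CPM in control libraries. On the blocked log2 scale Srsf5 was at 0.08, Srsf6 at -0.03, Srsf10, which can act as a repressor, at -0.02, and Srsf11 at -0.07. None of these differences passed the edgeR test with the block, where the blocked log2 fold changes of the 13 genes ran from -0.29 to 0.08.

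**Figure D3:**
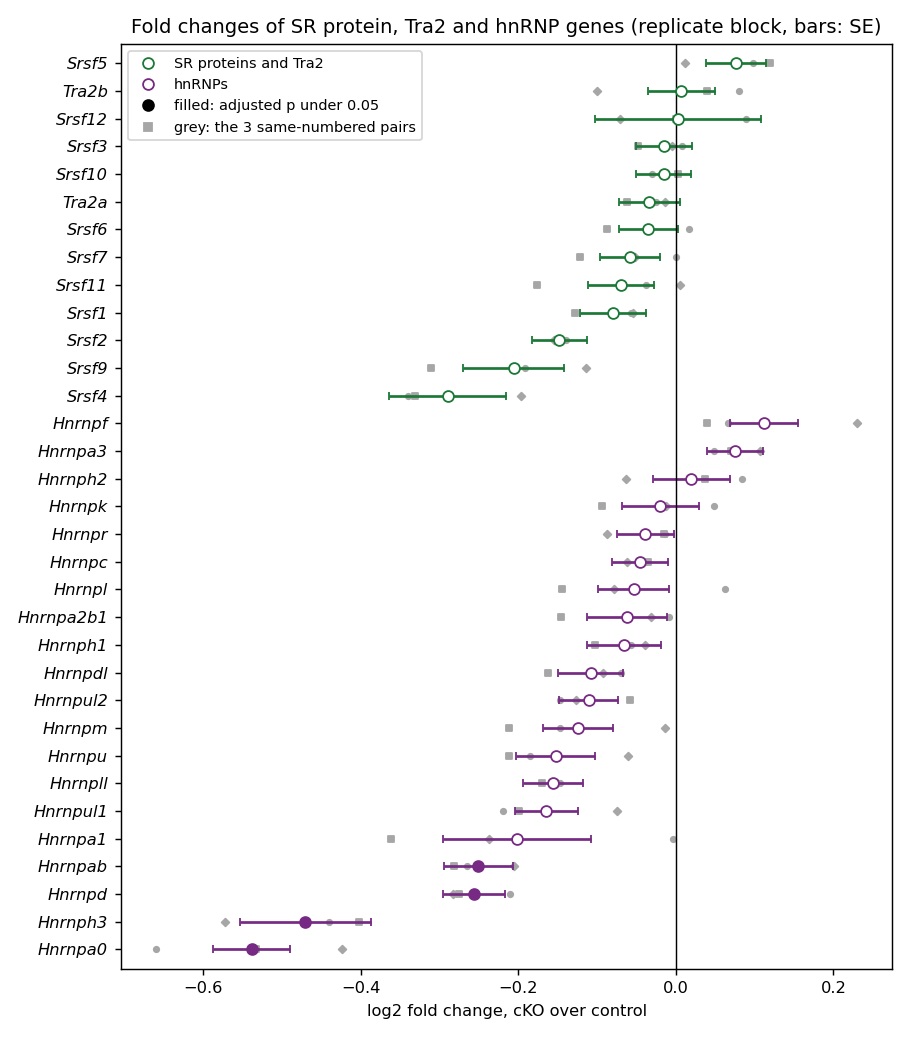
Log2 fold change, cKO over control, with its SE for each of the 33 genes in the edgeR fit with the replicate block. Filled points mark the 4 hnRNP genes at an adjusted p under 0.05, which lie between -0.54 and -0.25.

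Across the 33 genes the log2 fold change with the block was negative for 27 and positive for 6. Its median was -0.07 over the 33 genes, -0.03 over the SR and Tra2 genes, -0.11 over the hnRNP genes and 0.00 over all tested genes. The cKO library was below its control in all 3 pairs for 20 of the 33 genes, 15 hnRNP and 5 SR or Tra2 genes, beside 20.9% of all tested genes. It was above in all 3 pairs for 3 of the 33, beside 19.6%. Groups did not overlap, with cKO lower, for 4 of the 33, namely Hnrnpa0, Hnrnpd, Hnrnpdl and Srsf4, beside 3.60% of all genes. With cKO higher this held for 0 of the 33, beside 2.75%, and in either direction for 6.34% of all genes. These counts rest on the TMM scale, and some pair differences are close to none. In pair 1 the log2 ratio was -0.003 for Hnrnpa1 and -0.009 for Hnrnpa2b1. Scaled by library totals instead, some pairs turn and the groups overlap for Hnrnpdl. The blocked median of the 33 genes was -0.04 with library totals. The difference between the families was not tested. The hnRNP genes summed to 8849, 8389 and 7644 CPM in cKO libraries 1, 2 and 3, against 9545, 9383 and 8156 CPM in control libraries 1, 2 and 3. The SR and Tra2 genes summed to 3502, 3311 and 3008 CPM in cKO libraries 1, 2 and 3, against 3549.5, 3486 and 3103 CPM in control libraries 1, 2 and 3. The number 3 libraries had the lowest sums in both groups, and the groups overlapped for both sums.

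Fold changes across all genes varied with GC content and gene structure. In the GENCODE annotation (release 21, GRCm38), tested genes with a value were divided by transcript GC content into 5 groups of equal size. Of the 2974 protein-coding genes in the group richest in GC 7.36% were called lower with the block, against 0.456% of the 2853 in the poorest, and their median log2 fold change was -0.07 in the richest. Of the 33 genes, 20 lay in the poorest group and 1, Srsf4, in the richest. After each library was corrected for GC content, the edgeR test with the block gave adjusted p of 0.00134 for Hnrnpa0, 0.00617 for Hnrnpd, 0.0168 for Hnrnpab and 0.0159 for Hnrnph3. With that correction 7 of the 33 genes passed, all lower in cKO, beside 448 of 15332 genes (2.92%), of which 195 were lower. The others that passed were Srsf2 at an adjusted p of 0.0473, Hnrnpll at 0.0368 and Hnrnpul1 at 0.0399.

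Hnrnpa0 stands out among the 33 by its structure, as the gene is annotated with a single exon, at chr13:58125879-58128556 on the minus strand (GRCm38). Of 313 tested protein-coding genes with 1 exon, 29 were lower with the block (9.27%), against 2.21% of 14189 genes with more exons. The median log2 fold change was -0.08 for genes with 1 exon and 0.00 for the others. Whether structure plays a part in the Hnrnpa0 value was not tested. The other 3 genes that fell have several exons. Hnrnpab shares 809 exon bases with Phykpl on the opposite strand. Likewise Hnrnph3 shares 115 with Rufy2, and Hnrnpd shares 385 with an antisense gene, while 7 of the 33 genes share exon bases with a gene that the files list. Among these 7, Srsf4 shares 1532 with Gm12992, and Srsf2 shares 460 with Mettl23 and 288 with Mfsd11, all on the opposite strand. How the counting used strand is not known from the sources used here, so reads in these stretches cannot be told apart between the genes. Phykpl averaged 34.4 CPM in cKO and 28.7 CPM in control libraries, with a blocked log2 fold change of 0.26 (adjusted p = 0.118 by edgeR). That of Rufy2 was -0.05 (adjusted p = 0.761 by edgeR).

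**Figure D4:**
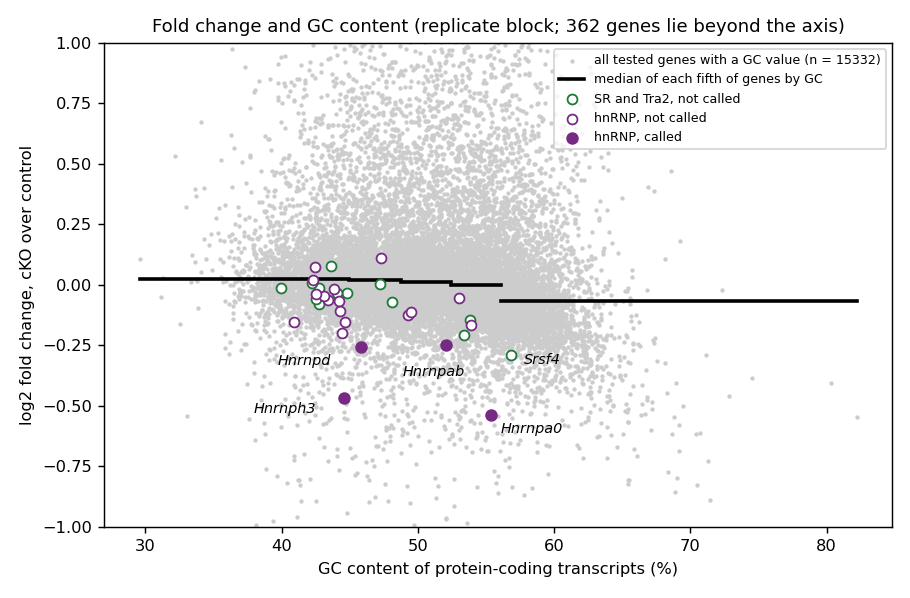
Log2 fold change with the replicate block (vertical axis, cKO over control) against GC content of the transcripts in percent, for all tested genes (grey) and the 33 genes (coloured). Black bars give the median of each of 5 equal groups by GC content, and the 4 hnRNP genes that fell lie below those bars.

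Transcripts annotated as targets of nonsense-mediated decay exist for 11 of the 13 SR and Tra2 genes (84.6%) and 10 of the 20 hnRNP genes (50.0%), beside 26.9% of tested protein-coding genes. Transcripts with a retained intron are annotated for 24 of the 33 genes (72.7%), beside 56.0%. Counts per gene do not separate these isoforms from the coding ones, so they do not show how much of each isoform was made.

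Genes of 7 other lists from the splicing machinery gave the surroundings of these values, with 165 of 166 genes tested. With the block 11 fell and 0 rose, and the median log2 fold change was -0.05. Of all tested genes this fit called 2.23% lower and 1.57% higher, beside which the calls of each list are to be read. At an unadjusted p under 0.05 the blocked fit held 2893 of all 15906 genes, beside which the counts of the lists are to be read. The kinases, phosphatases and importers of SR proteins had 0 calls among 14 genes with edgeR and the block, and 2 at an unadjusted p under 0.05. The U1, U2 and Sm proteins, which form the particles that first mark an intron, had 0 among 28 and 11 at an unadjusted p under 0.05. The proteins of the tri-snRNP and the catalytic spliceosome had 0 among 29 and 5 at an unadjusted p under 0.05. The exon junction complex and nonsense-mediated decay had 0 among 15, and 3 at an unadjusted p under 0.05. Without the block, edgeR called 0 of the 165, with 3 at an unadjusted p under 0.05, and DESeq2 and limma-voom called 0. In the blocked fit the calls lay in 3 lists of regulators, SR-related proteins, hnRNP-type proteins and cell-type regulators. The blocked median log2 fold change was -0.03, -0.06 and -0.10 in these 3 lists. It was -0.08 for the U1, U2 and Sm proteins and -0.04 for the tri-snRNP and catalytic spliceosome. For the exon junction complex and nonsense-mediated decay it was -0.04, and for the kinases, phosphatases and importers -0.02. The difference between the lists was not tested.

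Among 23 hnRNP-type proteins under other symbols, 5 fell, Dazap1, Pcbp4, Khsrp, Pcbp1 and Msi1. Dazap1, an hnRNP-like protein, averaged 106 ± 9.74 CPM in cKO and 139 ± 13.1 CPM in control libraries (SD, n = 3 each), a blocked log2 fold change of -0.38 (SE 0.05, adjusted p = 0.00498 by edgeR). Pcbp4, which binds C-rich RNA, averaged 245 ± 40.8 CPM in cKO and 289 ± 48.7 CPM in control libraries, at -0.24 (SE 0.03, adjusted p = 0.00967). Khsrp, which takes part in the decay of mRNAs with AU-rich elements, averaged 237 ± 21.8 CPM in cKO and 276 ± 40.2 CPM in control libraries, at -0.21 (SE 0.04, adjusted p = 0.0262). After the GC correction Dazap1 passed (adjusted p = 0.00579), and Pcbp4 (0.287) and Khsrp (0.0556) did not.

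Among 32 tested cell-type splicing regulators, 3 fell, Elavl3, Celf5 and Celf4, which are mainly neuronal in the brain. Elavl3 averaged 408 ± 83.4 CPM in cKO and 494 ± 96.1 CPM in control libraries (SD, n = 3 each), a blocked log2 fold change of -0.28 (SE 0.04, adjusted p = 0.00705 by edgeR). For Celf5 it was -0.30 (SE 0.07, adjusted p = 0.0393) and for Celf4 -0.21 (SE 0.05, adjusted p = 0.0481). Of 12 neuronal markers, 3 fell with the block, Tubb3, Dlx1 and Dlx2, and 9 did not pass, beside 2.23% of all tested genes called lower. The sum of the list was lower in cKO in all 3 pairs, which also held for 20.9% of single genes. The part of neurons in the values of these regulators was not tested. Among 24 SR-related proteins 3 fell. Scaf1 averaged 187 ± 12.7 CPM in cKO and 217 ± 20.9 CPM in control libraries (adjusted p = 0.0199 by edgeR with the block). Srrm3, a splicing factor of neurons, averaged 24.9 ± 2.64 CPM in cKO and 34.0 ± 3.42 CPM in control libraries (adjusted p = 0.0207), and Acin1, which joins the exon junction complex, averaged 413 ± 66.4 CPM in cKO and 465 ± 77.9 CPM in control libraries (adjusted p = 0.0417). With the GC correction 4 of the 11 genes passed, Dazap1, Elavl3, Celf4 and Acin1.

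**Figure D5:**
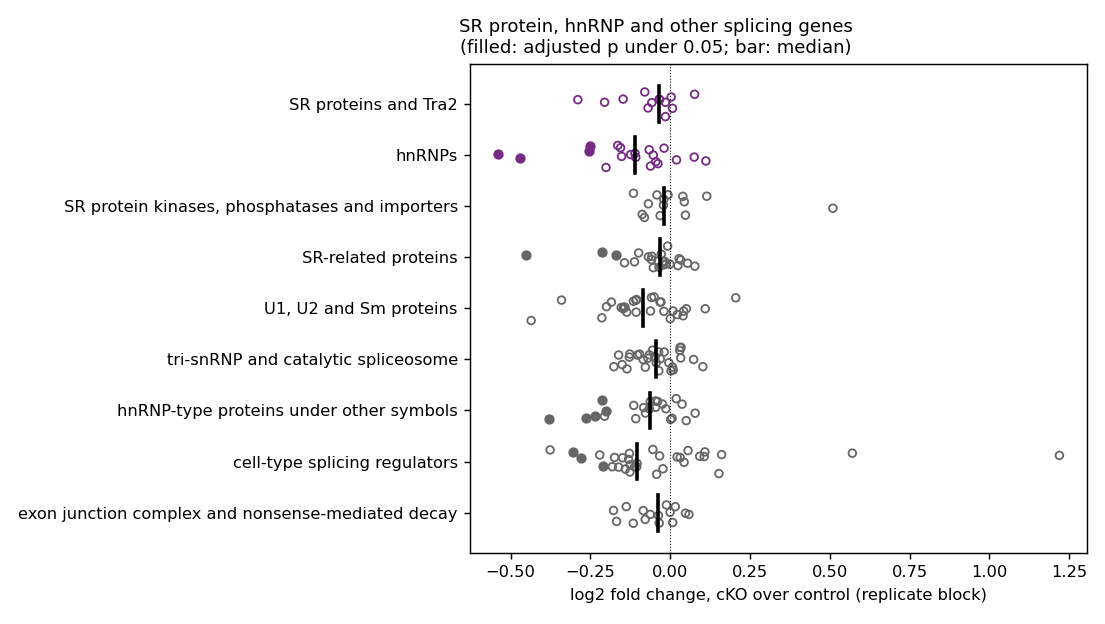
Log2 fold change with the replicate block, cKO over control, of each gene in the SR and Tra2 family, the hnRNP family and 7 other splicing lists, with a bar at each list's median. Filled points mark genes at an adjusted p under 0.05, 4 in the hnRNP family and 11 in the other lists, all below 0.

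Markers of other cells also moved with genotype in the blocked fit, which called 1.57% of all tested genes higher and 2.23% lower. Endothelial markers summed to 44.9 to 302 CPM in cKO and 20.6 to 92.2 CPM in control libraries, with 7 of 10 higher in cKO. Markers of choroid plexus and ependyma summed to 868 to 2817 CPM in cKO and 369 to 1927 CPM in control libraries, with 7 of 10 higher. Astrocyte markers summed to 1822 to 3262 CPM in cKO and 1558 to 2766 CPM in control libraries, with 4 of 10 higher. Pericyte and fibroblast markers summed to 137 to 1120.5 CPM in cKO and 101 to 710 CPM in control libraries, with 2 of 10 higher. Microglial markers summed to 16.5 to 285 CPM in cKO and 17.3 to 285 CPM in control libraries, and oligodendrocyte markers to 301.5 to 800 CPM in cKO and 256 to 980 CPM in control libraries, with 0 calls in either list. Of the oligodendrocyte markers, 8 of 10 were tested, and Opalin had a count of 0 in 5 of the 6 libraries. Bulk libraries do not show how much of either family each cell type expressed. The part of cell mixture in the values of the 33 genes was not tested.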

How the data were processed

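Poly(A) RNA-seq counts of 6 OPC libraries were analysed. Per the labels' protocols, libraries were stranded and paired-end. The deposited counts are whole read pairs per gene symbol, not normalised. The mm10 build and the tools HTSeq 0.12.4, HISAT2 2.2.1 and DESeq2 1.26.0 are listed in the submitters' processing notes, without roles. For annotation and strand setting nothing is stated in the sources used here. Entries of each table that name no gene (20.8% of read pairs in no feature in cKO and 19.7% in control libraries, on average) were left out. The number of columns not used was 0.

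Groups came from the labels' genotypes. Genes passing edgeR's filterByExpr (15906, with 99.95% of gene counts) were scaled by TMM and tested two-sided in R 4.3.3 by edgeR 4.0.16 (quasi-likelihood), with genotype as the only term and Benjamini-Hochberg adjustment over all of them. Calls are at an adjusted p under 0.05. SE was taken from the fold change and F. Deviations from group means correlated at 0.778, 0.751 and 0.726 between libraries numbered 1, 2 and 3, so numbers are treated as pairs, and the fit with this block is given beside the first. Alternatives were other scalings and filters, DESeq2 1.42.0, limma-voom 3.58.1, libraries or pairs left out, and offsets that set each library's median in 20 GC bins. On simulated data, unchanged genes made up more of the calls with the block than the threshold allows. The test without it missed most changes, large ones included. The simulated counts were drawn from a fit that held the replicate numbers, with the spread of the blocked fit. Differences between pairs were thus built in, so the simulation cannot decide whether the block suits the real libraries. Exon lengths and GC content came from GENCODE (mouse release 21, GRCm38), whose symbols matched 23384 of 24421 genes.

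Values in every library are given for genes called in either fit, and in each family for the 3 uncalled genes of smallest blocked adjusted p and those of highest and lowest CPM per kilobase. From each other list, up to 3 called genes are given with values. Hnrnpdl, Hnrnpk, Pcbp1 and Msi1 were added after their values were seen, and the remaining genes are given by means, folds or counts. The genes and lists were chosen with earlier results of these data known.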

Additional observations from a re-analysis of the deposited data

Results flagged for a closer look

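A set of 3 kinds of read pairs outside the gene counts took a larger share in every cKO library than in every control library. They were singled out by that rule, and no comparison uses any read pairs outside the gene counts. Ambiguous pairs (1.45% in cKO and 1.46% in control libraries) and pairs with several alignments (3.41% and 3.46%) did not meet it. Read pairs in no annotated feature made up 20.8% ± 0.50 of all pairs in cKO and 19.7% ± 0.665 in control libraries (SD, n = 3 each). Pairs of low alignment quality made up 3.83% ± 0.248 in cKO and 3.11% ± 0.193 in control libraries. Pairs that did not align made up 1.25% ± 0.122 in cKO and 1.03% ± 0.0964 in control libraries. These 3 shares were picked for their difference between the groups, and their part in the values of SR protein and hnRNP genes was not tested.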

How the results depend on the processing

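Libraries with the same number deviated together, and the replicate block decides the calls. Without it edgeR called 0 of the 33 genes and 0 of the 165 other splicing genes under each scaling, filter or left-out library, and limma-voom also 0, while DESeq2 called 1 of the 33. With the block the calls were 4 and 11 with TMM, 4 and 10 with DESeq2 size factors, 4 and 7 with library totals, 8 and 18 with no filter, 5 and 7 at a mean of at least 5 CPM, 5 and 14 with DESeq2, 8 and 14 with limma-voom, and 7 and 4 after GC correction. Of all tested genes the same fits called 3.80% (604) with TMM, 3.60% with DESeq2 size factors, 3.16% with library totals, 5.13% (1034) with no filter, 3.61% at a mean of at least 5 CPM, 4.28% with DESeq2, 4.48% with limma-voom and 2.92% after GC correction, and 2.79%, 3.25% and 1.09% (174) without pairs 1, 2 and 3. Hnrnpa0, Hnrnpd, Hnrnpab and Hnrnph3 were called in every blocked setting that kept all 3 pairs. Leaving out a pair gave 2 to 3 of the 33 genes, fewest without pair 3, and 3 to 9 of the others, of which 1 was higher without pair 2. Prrc2b passed in each of the 11 blocked settings and in 0 of those without the block, at a log2 fold change of -0.41 (TMM, DESeq2 size factors, DESeq2 and limma-voom), -0.39 (library totals and at least 5 CPM), -0.42 (no filter) and -0.40 (GC correction), and -0.47 to -0.35 with a pair left out. 

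Library totals moved the median of all genes to 0.03. None of the values that changed sign was called. With library totals they were 0.0073 for Hnrnpk, 0.011 for Srsf10, 0.0094 for Srsf12 and 0.011 for Srsf3, and with the block too 0.0067, 0.011, 0.029 and 0.011. At a mean of at least 5 CPM they were 0.00019 for Hnrnpk, 0.0041 for Srsf10, 0.0044 for Srsf12 and 0.0043 for Srsf3, and with the block too 8.9e-05, 0.0042, 0.022 and 0.0045. Srsf12 was at 0.0027 with the block, 0.0033 with the block and DESeq2 size factors and 0.0037 with the block and DESeq2. With the block and GC correction Hnrnph2 was at -0.0018 and Tra2b at -0.015. With a library left out and no block, genes that changed sign ran from -0.16 to 0.021 for Hnrnpa2b1, -0.095 to 0.00088 for Hnrnpc, -0.020 to 0.20 for Hnrnpf, -0.048 to 0.099 for Hnrnph2, -0.088 to 0.050 for Hnrnpk, -0.14 to 0.039 for Hnrnpl, -0.21 to 0.034 for Srsf1, -0.098 to 0.072 for Srsf10, -0.37 to 0.40 for Srsf12, -0.024 to 0.0053 for Srsf3, -0.037 to 0.16 for Srsf5, -0.10 to 0.035 for Srsf6, -0.12 to 0.028 for Srsf7, -0.15 to 0.080 for Tra2a and -0.094 to 0.11 for Tra2b. With the block and without pair 1, Hnrnph2 was at -0.0063 and Tra2b at -0.023. Without pair 2, Hnrnpk was at 0.017, Srsf12 at 0.0034, Srsf3 at 0.00028 and Tra2b at -0.010. Without pair 3, Srsf12 was at 0.047. The cause of these moves was not tested. With 3 libraries a group and 4 residual degrees of freedom (2 with the block), most differences among the 33 genes did not pass, which does not show that they are 0.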
